A study of Homo sapiens with 30 samples.

Results

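Small nucleolar RNA (snoRNA) host genes are transcripts whose introns carry snoRNAs. Members were every row of the count table with a symbol made of SNHG and a number, plus GAS5, ZFAS1, DANCR and EPB41L4A-AS1, which gave 32 genes of 60675. Of these, 29 had a mean of at least 1 CPM (counts scaled to a common library total) and were tested among 13850 genes. The 3 members under that level were SNHG22, SNHG25 and SNHG27, with means of 0.496, 0.0322 and 0.00473 CPM, and the lowest tested members were SNHG31 and SNHG28, with 1.05 and 1.28 CPM.

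The cells were SW1783, a human astrocytoma line, after 24 h with an herbal extract of Korean medicine or its vehicle. Palmul-tang and Sibjeondaebo-tang, both water extracts, were given at 20, 100 and 500 µg/mL with 3 libraries per dose. The same doses of Samul-tang (water extract), Poria Cocos and Atractylodis Rhizoma (ethanol extracts) were represented by 1 library each. Vehicle had 3 libraries and was DMSO at 0.1% per its treatment label, while the series' design text gives another share. The sample labels read here give a DMSO share for vehicle alone. Whether treated cells had the same share is therefore not known here, and a difference in DMSO cannot be told apart from the extract. The formulas are nested: Sibjeondaebo-tang includes all herbs of Palmul-tang, which includes all of Samul-tang. Whether replicate libraries stem from separate cultures is not stated, and p-values thus cover the variation among these libraries alone, which may be technical. Every sample title carries the label BatchC, and what the sample codes stand for is not stated in the labels used here. No treated library shares the set of sample codes used for vehicle. Treatment and any handling tied to these codes therefore cannot be told apart in any comparison with vehicle.

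Total counts ran from 23448061 to 37822334 in treated libraries and from 22568755 to 27956026 in vehicle libraries. The TMM factors, which adjust library totals before CPM are formed, ran from 0.992 to 1.02 in treated and from 0.957 to 0.979 in vehicle libraries. These ranges do not overlap, so the scaling itself differs between treated and vehicle libraries. Long noncoding RNAs took between 0.981% and 1.11% of counts in treated and between 0.931% and 0.948% in vehicle libraries, without overlap. The summed level of the 32 members ran from 946.6 to 1041 CPM in treated and from 988.4 to 1012 CPM in vehicle libraries, which overlap. Of 10 astrocyte markers, 5 had a mean of at least 1 CPM, led by VIM and SOX9, while GFAP, S100B, AQP4 and ALDH1L1 stood at 0.0769 CPM or less. The same level was reached by 2 of 4 neuron, 2 of 4 microglia, 1 of 3 oligodendrocyte and 0 of 3 endothelial markers. Among them were SYT1 at 37.6 and CD68 at 156 CPM, so these markers do not single out astrocytes. Replicate 3 of Sibjeondaebo-tang at 500 µg/mL stood apart, with a chi-square per gene of 9.27 and 8.33 against its replicates, which had 2.83 between themselves. In bulk RNA, fewer cells of a type and less RNA per cell cannot be told apart.

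A host gene is transcribed and spliced like an mRNA, and its snoRNAs are trimmed out of the removed introns. Box C/D snoRNAs guide ribose methylation and box H/ACA snoRNAs guide pseudouridylation, mostly of ribosomal RNA. Many host transcripts begin with a terminal oligopyrimidine tract, as the mRNAs of ribosomal proteins do, and spliced host RNAs such as GAS5 are degraded by nonsense-mediated decay once ribosomes engage them. The level of a host RNA therefore reflects both its synthesis and its decay.

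The starts of 9 members are shown because a pyrimidine run at the start is the feature that many host genes share with ribosomal protein genes. Each stretch, from RefSeq on GRCh38.p14, holds the 25 bases before the annotated start and the first 40 bases from it, written in the direction of the gene. Capitals mark CTTTC or CTTTT within 10 bases of the start.
SNHG12: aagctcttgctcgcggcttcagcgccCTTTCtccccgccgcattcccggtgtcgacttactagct
SNHG8: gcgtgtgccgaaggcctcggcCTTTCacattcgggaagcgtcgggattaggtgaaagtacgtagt
SNHG16: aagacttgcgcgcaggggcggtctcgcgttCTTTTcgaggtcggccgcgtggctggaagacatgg
ZFAS1: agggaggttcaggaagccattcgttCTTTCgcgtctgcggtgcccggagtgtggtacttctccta
SNHG5: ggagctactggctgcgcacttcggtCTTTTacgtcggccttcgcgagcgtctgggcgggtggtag
SNHG32: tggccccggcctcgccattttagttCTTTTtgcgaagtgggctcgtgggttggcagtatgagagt
SNHG1: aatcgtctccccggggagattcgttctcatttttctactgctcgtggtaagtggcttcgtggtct
SNHG3: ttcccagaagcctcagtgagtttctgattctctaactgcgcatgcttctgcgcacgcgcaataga
GAS5: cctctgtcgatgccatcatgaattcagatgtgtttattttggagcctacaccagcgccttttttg

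These windows lie at chr1:28581834-28581898 (minus strand) for SNHG12, chr4:118278737-118278801 (plus) for SNHG8, chr17:76557739-76557803 (plus) for SNHG16 and chr20:49278617-49278681 (plus) for ZFAS1. The others lie at chr6:85678694-85678758 (minus) for SNHG5, chr6:31834891-31834955 (plus) for SNHG32, chr11:62855846-62855910 (minus) for SNHG1, chr1:28505918-28505982 (plus) for SNHG3 and chr1:173869006-173869070 (minus) for GAS5. The motif begins exactly at the annotated first base in ZFAS1, SNHG5, SNHG32 and SNHG19, and SNHG4 and SNHG29 hold it nearby. Of the 28 members with an entry, 9 (32.1%) held the motif, beside 41 of 64 ribosomal protein genes (64.1%) and 2349 of 35116 promoters of the table (6.69%). On the opposite strand of the same windows the shares were 3.57%, 1.56% and 4.51%. RefSeq and GENCODE 29 place some starts apart. The GAS5 window lies wholly upstream of the GENCODE gene (173863900 to 173868882, minus strand), and the SNHG12 window lies inside its gene, which runs to 28583132. No motif was sought at the GENCODE starts, so these shares hold for the RefSeq starts alone. A match describes letters in a window, and its absence says nothing about the transcript.

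The libraries gave counts for the host RNAs and hardly any for their snoRNAs. GENCODE 29 on GRCh38 places 139 snoRNA genes inside the members on the same strand, 108 of them box C/D and 24 box H/ACA by name, and 25 members hold at least 1. These numbers depend on that release, which places 0 snoRNA genes inside GAS5 and does not tag GAS5 as a host. SNHG14, an imprinted transcript of the Prader-Willi and Angelman region, alone holds 83 box C/D genes, SNHG1 holds 6, and SNHG12 holds 1 box C/D and 4 box H/ACA genes. Of the 139 snoRNA rows only 6 had any count, the highest with a mean of 0.181 CPM. Some of these snoRNAs, as in SNHG1, overlap annotated exons of their host. Whether host counts came from spliced RNA alone was not tested.

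Per kilobase of annotated exons, the members spanned a wide range. SNHG32 had a mean of 75.2 CPM per kb and SNHG29 65.4 CPM per kb, followed by SNHG6 at 22.8, ZFAS1 and GAS5 at 20.6 each and DANCR at 18.7 CPM per kb. SNHG14, whose exons cover 43324 bases, had 1.13 CPM per kb, and the lowest tested member was SNHG31 at 0.497 CPM per kb.

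**Figure D1:**
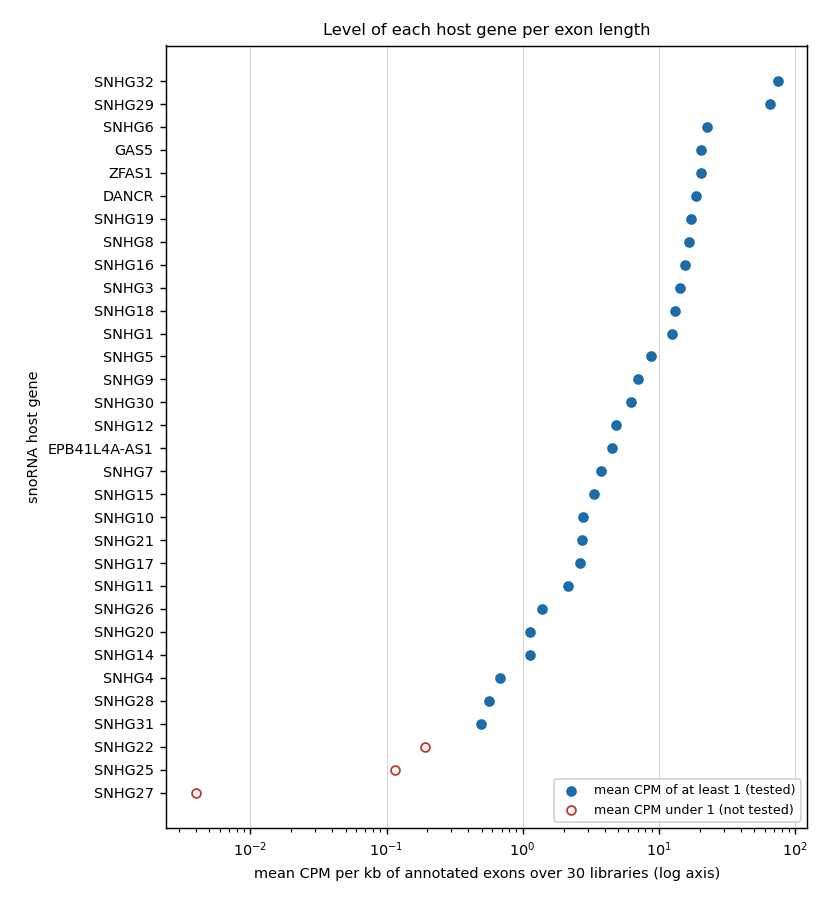
Mean level of each of the 32 snoRNA host genes over 30 libraries, in CPM per kb of annotated exons on a log axis, with tested members filled and members under 1 CPM open. SNHG32 and SNHG29 stand above the rest at 75.2 and 65.4 CPM per kb, and the open symbols of SNHG22, SNHG25 and SNHG27 lie lowest.

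The comparison of treated cells with vehicle asked which host RNAs differed after 24 h with each extract. Host genes moved in both directions: SNHG12, SNHG8, SNHG1 and SNHG14 were higher and SNHG16 was lower in all 9 comparisons, by the quasi-likelihood test of edgeR at a Benjamini-Hochberg adjusted p under 0.05 over 13850 genes. These are also the members whose 27 treated libraries lie entirely above or entirely below the 3 vehicle libraries, 5 of 29 (17.2%), beside 16.1% of all tested genes (7.12% above and 8.95% below). Calls in 1 direction in all 9 comparisons came to 14.3% of all tested genes (6.06% higher and 8.28% lower). The comparisons share the vehicle libraries, so they are not independent of each other. The members' share lay close to that of all genes.

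With Palmul-tang at 20 µg/mL, 9 of 29 members were called, beside 31.8% of all genes: 6 higher, beside 14.8%, and 3 lower, beside 17%. At 100 µg/mL 9 were called, beside 30.9%: 6 higher, beside 14.4%, and 3 lower, beside 16.5%. At 500 µg/mL 12 were called, beside 36.6%: 5 higher, beside 17.2%, and 7 lower, beside 19.4%. With Sibjeondaebo-tang at 20 µg/mL, 8 were called, beside 31.8%: 5 higher, beside 15.6%, and 3 lower, beside 16.2%. At 100 µg/mL 7 were called, beside 32.6%: 5 higher, beside 16.1%, and 2 lower, beside 16.5%. At 500 µg/mL 11 were called, beside 33.4%: 7 higher, beside 17.1%, and 4 lower, beside 16.3%. For the mean of 3 doses of Samul-tang 11 were called, beside 36.8%: 7 higher, beside 16.1%, and 4 lower, beside 20.7%. For Poria Cocos 11 were called, beside 36.4%: 8 higher, beside 17.1%, and 3 lower, beside 19.3%. For Atractylodis Rhizoma 9 were called, beside 36.3%: 5 higher, beside 17.6%, and 4 lower, beside 18.8%. Over members, the median log2 fold change against vehicle was 0.06 for Sibjeondaebo-tang and -0.0025 for Palmul-tang at 500 µg/mL, beside 0.0094 and -0.00051 over all genes. The share of counts from long noncoding RNAs moved with treatment as given above, and its part in these results was not tested. Without replicate 3 of Sibjeondaebo-tang at 500 µg/mL its member count was 9, and without replicate 2 it was 7. Without the 100 µg/mL library of Poria Cocos, that extract's member count was 6. Leaving out each library in turn gave 3624 to 5325 called genes for Sibjeondaebo-tang at 500 µg/mL, in place of 4631. For Poria Cocos it gave 4112 to 4417, in place of 5042. Whether these member counts changed more than those of all genes in the same fit was not tested.

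**Figure D2:**
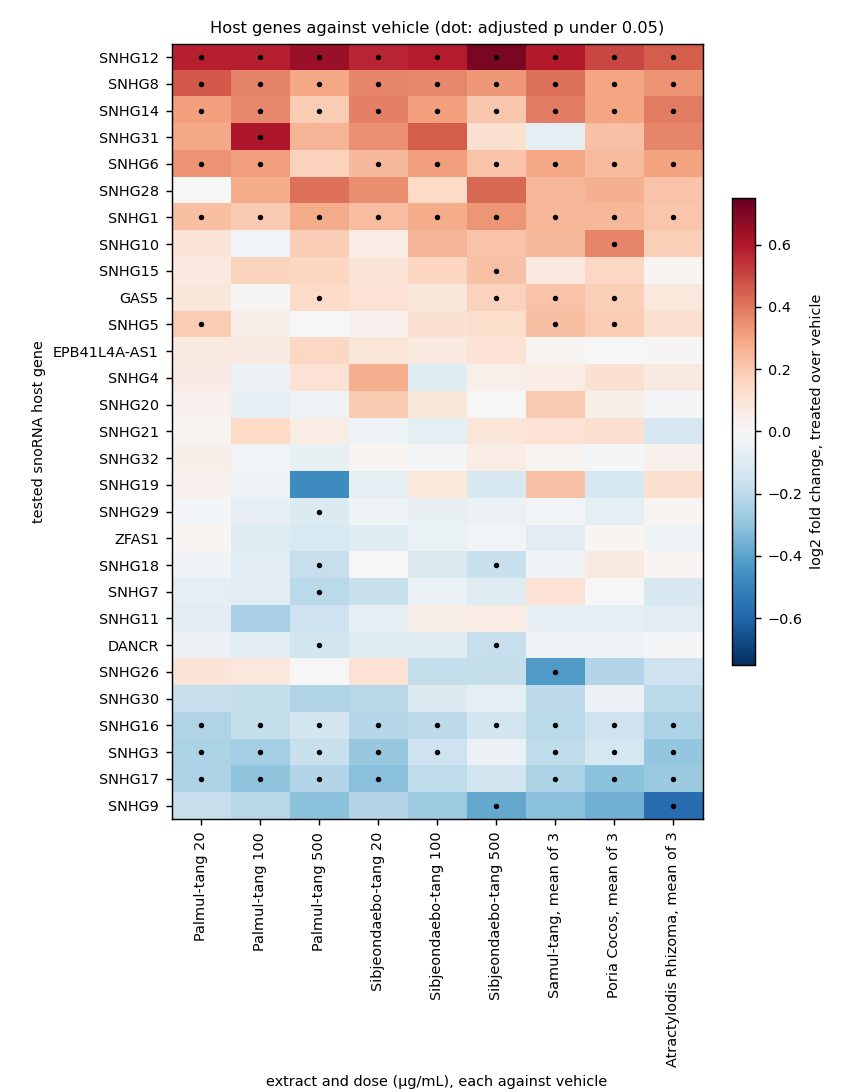
Log2 fold change of each of the 29 tested host genes (rows) in 9 comparisons of extract and dose against vehicle (columns), red higher and blue lower in treated cells, with a dot where the adjusted p is under 0.05. Rows of SNHG12, SNHG8, SNHG14 and SNHG1 are dotted throughout at the red end and SNHG16 throughout at the blue end, while 10 members have no dot.

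SNHG12 (ENSG00000197989, chromosome 1, 28578538 to 28583132, minus strand), host of mostly box H/ACA snoRNAs, showed the largest rise with treatment among the members called in all 9 comparisons. It stood at 14.1, 14.8 and 14.1 CPM in vehicle, at 23.7, 20.0 and 20.7 CPM with Palmul-tang at 20 µg/mL, at 21.0, 19.6 and 24.0 at 100 and at 22.3, 22.4 and 22.8 at 500 µg/mL. With Sibjeondaebo-tang it stood at 20.0, 22.5 and 21.3 CPM at 20 µg/mL, at 23.5, 21.3 and 20.2 at 100 and at 24.9, 21.6 and 23.5 at 500 µg/mL. The lowest treated library of any extract, at 19.2 CPM, lay above the highest vehicle library, and the rise was already present at the lowest dose. At 500 µg/mL it was 1.57-fold with Palmul-tang, a log2 fold change of 0.65 ± 0.077 (SE; adjusted p = 4.0e-08), and 1.63-fold with Sibjeondaebo-tang, 0.70 ± 0.076 (adjusted p = 6.37e-09). The single libraries at 20, 100 and 500 µg/mL had 20.3, 20.8 and 24.1 CPM for Samul-tang, 20.0, 19.2 and 21.9 for Poria Cocos and 19.3, 20.1 and 19.4 for Atractylodis Rhizoma. The mean over these doses was higher than vehicle by 0.60, 0.50 and 0.45 on the log2 scale for Samul-tang, Poria Cocos and Atractylodis Rhizoma (edgeR, adjusted p = 3.11e-07, 5.30e-06 and 2.42e-05).

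SNHG8 (ENSG00000269893, chromosome 4, 118278709 to 118279823, plus strand) is a short gene that hosts 1 box H/ACA snoRNA. It stood at 12.6, 11.9 and 12.0 CPM in vehicle, at 18.8, 15.1 and 16.5 CPM with Palmul-tang at 20 µg/mL, at 17.0, 13.9 and 16.5 at 100 and at 15.1, 14.8 and 14.9 at 500 µg/mL. With Sibjeondaebo-tang it stood at 15.4, 17.1 and 14.7 CPM at 20 µg/mL, at 15.3, 17.3 and 14.3 at 100 and at 16.3, 14.6 and 14.9 at 500 µg/mL. Every treated library exceeded every vehicle library, down to 13.2 CPM in the Atractylodis Rhizoma library at 100 µg/mL. The single libraries at 20, 100 and 500 µg/mL had 15.6, 17.5 and 15.7 CPM for Samul-tang, 15.4, 16.3 and 13.5 for Poria Cocos and 16.5, 13.2 and 16.8 for Atractylodis Rhizoma. The log2 fold change over vehicle ran from 0.29 ± 0.086 (SE) with Palmul-tang at 500 µg/mL to 0.46 ± 0.085 at 20 µg/mL (edgeR, adjusted p = 0.00848 and 9.21e-05). The call for Poria Cocos, 0.30 ± 0.086 (adjusted p = 0.00664), had an adjusted p of 0.0525 without its 100 µg/mL library.

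SNHG1 (ENSG00000255717, chromosome 11, 62851988 to 62855914, minus strand), a classic noncoding host gene whose 6 box C/D snoRNAs all overlap annotated exons, was more evenly raised. It stood at 40.9, 39.1 and 40.1 CPM in vehicle, at 49.6, 44.3 and 46.8 CPM with Palmul-tang at 20 µg/mL, at 45.2, 46.6 and 45.8 at 100 and at 46.4, 49.0 and 50.2 at 500 µg/mL. With Sibjeondaebo-tang it stood at 48.6, 46.9 and 45.6 CPM at 20 µg/mL, at 47.8, 48.4 and 49.4 at 100 and at 51.4, 50 and 49.5 at 500 µg/mL. The single Samul-tang libraries had 43.8, 45.4 and 54.6 CPM at 20, 100 and 500 µg/mL, which holds both the lowest and the highest treated value. Poria Cocos had 47.7, 45.1 and 50.2 CPM and Atractylodis Rhizoma 45.6, 47 and 46.2 CPM at these doses. The log2 fold change over vehicle was 0.28 ± 0.046 with Palmul-tang and 0.33 ± 0.045 with Sibjeondaebo-tang at 500 µg/mL (edgeR, adjusted p = 1.14e-05 and 7.10e-07).

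SNHG14 (ENSG00000224078, chromosome 15, 24978583 to 25419462, plus strand) was higher than vehicle in all 9 comparisons. It stood at 38.3, 39.7 and 42.2 CPM in vehicle, at 49.1, 48.9 and 50.7 CPM with Palmul-tang at 20 µg/mL, at 51.6, 54.3 and 48.6 at 100 and at 46.3, 44.1 and 47.0 at 500 µg/mL. With Sibjeondaebo-tang it stood at 53.8, 49.4 and 53.1 CPM at 20 µg/mL, at 48.2, 50.2 and 50.4 at 100 and at 47.6, 46.6 and 44.4 at 500 µg/mL. All treated libraries lay above vehicle, and in both formulas the 3 libraries at 500 µg/mL lay below those at 20 µg/mL. The log2 fold change over vehicle was 0.38 ± 0.048 with Sibjeondaebo-tang at 20 µg/mL and 0.20 ± 0.049 at 500 µg/mL (edgeR, adjusted p = 3.67e-07 and 0.00129). The single libraries at 20, 100 and 500 µg/mL had 55.1, 51.5 and 50.9 CPM for Samul-tang, 51.8, 49.8 and 46.0 for Poria Cocos and 53.5, 50.9 and 53.1 for Atractylodis Rhizoma.

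SNHG6 (ENSG00000245910), which hosts 1 box C/D snoRNA, was called higher in 8 of 9 comparisons. It had 23.1, 27 and 22.3 CPM in vehicle, and 23.9, 28.7 and 33.8 CPM as the lowest, median and highest treated library, with 25 of 27 above the highest vehicle library. The exception was Palmul-tang at 500 µg/mL, at 0.17 on the log2 scale (edgeR, adjusted p = 0.114), which was 0.261 (adjusted p = 0.0216) without vehicle replicate 2 and 0.257 (adjusted p = 0.0197) without its own replicate 2. Only the calls for Palmul-tang at 20 and 100 µg/mL, Sibjeondaebo-tang at 100 µg/mL and Atractylodis Rhizoma, between 0.30 and 0.34 on the log2 scale, held under every alternative tried. Those for Sibjeondaebo-tang at 500 and 20 µg/mL had an adjusted p of 0.206 and 0.125 without vehicle replicate 3 and of 0.165 and 0.103 without vehicle replicate 1. Those for Samul-tang and Poria Cocos had 0.0502 and 0.137 without vehicle replicate 3, and that for Poria Cocos 0.11 without vehicle replicate 1. Leaving out replicate 1 or 2 of Sibjeondaebo-tang at 500 µg/mL (0.15 and 0.134), replicate 1 or 3 at 20 µg/mL (0.0735 and 0.064) or any 1 Poria Cocos library (0.0525 to 0.0643) also ended these calls.

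**Figure D3:**
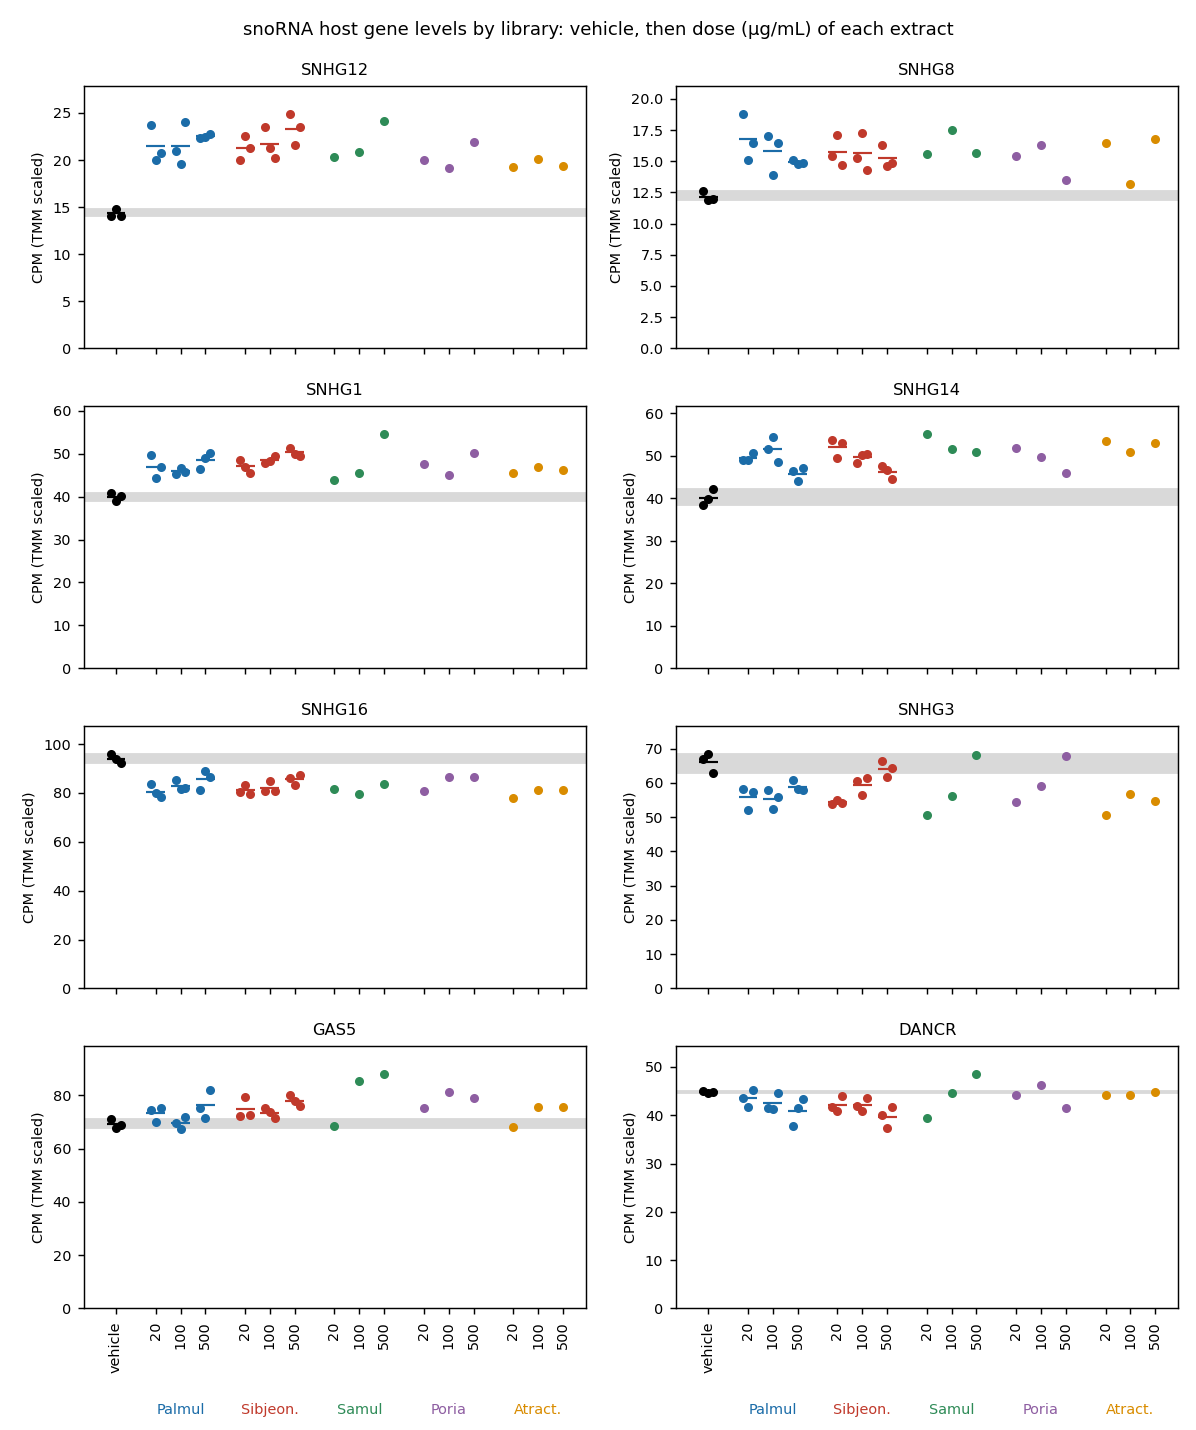
CPM of 8 snoRNA host genes in each library (points), with vehicle first and then the doses of 20, 100 and 500 µg/mL for Palmul-tang, Sibjeondaebo-tang, Samul-tang, Poria Cocos (Poria) and Atractylodis Rhizoma (Atract.). Lines are means of 3 libraries and the grey band spans vehicle. All treated points lie above the band for SNHG12, SNHG8, SNHG1 and SNHG14 and below it for SNHG16, while SNHG3 has points within it at 500 µg/mL of Sibjeondaebo-tang, Samul-tang and Poria Cocos.

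SNHG16 (ENSG00000163597, chromosome 17, 76557766 to 76565348, plus strand), host of 3 box C/D snoRNAs, was the only member called lower in all 9 comparisons. It stood at 95.9, 94.0 and 92.3 CPM in vehicle, at 83.5, 79.8 and 78.3 CPM with Palmul-tang at 20 µg/mL, at 85.5, 81.5 and 81.9 at 100 and at 81.3, 88.9 and 86.6 at 500 µg/mL. With Sibjeondaebo-tang it stood at 80.5, 83.4 and 79.6 CPM at 20 µg/mL, at 80.8, 84.9 and 80.6 at 100 and at 86.1, 83.1 and 87.4 at 500 µg/mL. The highest treated library, at 88.9 CPM, lay under the lowest vehicle library. The single libraries at 20, 100 and 500 µg/mL had 81.7, 79.6 and 83.7 CPM for Samul-tang, 80.9, 86.4 and 86.6 for Poria Cocos and 77.9, 81.4 and 81.2 for Atractylodis Rhizoma. The log2 fold change was -0.22 ± 0.040 at 20 µg/mL and -0.14 ± 0.039 at 500 µg/mL of Palmul-tang (edgeR, adjusted p = 4.82e-05 and 0.0066). At 500 µg/mL the log2 fold change was -0.0905 (edgeR, adjusted p = 0.103) without replicate 1 of Palmul-tang. For Sibjeondaebo-tang at 500 µg/mL it was -0.14 ± 0.039 (edgeR, adjusted p = 0.00668), and -0.111 (adjusted p = 0.0538) without replicate 2.

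SNHG3 (ENSG00000242125, chromosome 1, 28505980 to 28510892, plus strand), host of 2 box H/ACA snoRNAs, was lowest at the low dose and near vehicle at the high dose of several extracts. It stood at 66.9, 68.4 and 62.9 CPM in vehicle, at 53.8, 55.0 and 54.1 CPM with Sibjeondaebo-tang at 20 µg/mL, at 60.4, 56.6 and 61.3 at 100 and at 66.4, 61.6 and 64.2 at 500 µg/mL. With Palmul-tang it stood at 58.3, 52.2 and 57.3 CPM at 20 µg/mL, at 58.0, 52.4 and 55.8 at 100 and at 60.7, 58.1 and 57.8 at 500 µg/mL. The 3 libraries of each Palmul-tang dose lay under vehicle, while those of Sibjeondaebo-tang at 500 µg/mL overlapped it. The single libraries at 20, 100 and 500 µg/mL had 50.7, 56.1 and 68.0 CPM for Samul-tang, 54.3, 59.0 and 67.8 for Poria Cocos and 50.5, 56.7 and 54.8 for Atractylodis Rhizoma.

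Against vehicle, SNHG3 had a log2 fold change of -0.28 ± 0.047 with Sibjeondaebo-tang at 20 µg/mL (edgeR, adjusted p = 2.25e-05) and of -0.04 ± 0.046 at 500 µg/mL (adjusted p = 0.515). It was called lower in 8 of 9 comparisons, all but the last named, and 3 of these calls depended on 1 library. The call for Sibjeondaebo-tang at 100 µg/mL, -0.15 ± 0.047 (adjusted p = 0.0109), had 0.0701 without vehicle replicate 2 and 0.128 without its own replicate 2. That for Samul-tang, -0.19 ± 0.048 (adjusted p = 0.00179), was -0.0914 (adjusted p = 0.194) without the 20 µg/mL library. That for Poria Cocos, -0.13 ± 0.047 (adjusted p = 0.0241), had 0.0814 and 0.124 without vehicle replicates 1 and 2, and 0.0741 without its 100 µg/mL library. Without its 20 µg/mL library it was -0.0563 (adjusted p = 0.438).

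SNHG17 and SNHG9, at lower levels, also lay under vehicle. SNHG17 (ENSG00000196756, chromosome 20), host of 4 box H/ACA snoRNAs, had 9.42, 10.8 and 12.7 CPM as the lowest, median and highest treated library and 11.8, 12.9 and 13.7 CPM in vehicle. It was called lower in 7 of 9 comparisons, but only 2 calls held under every alternative: -0.32 ± 0.082 with Sibjeondaebo-tang at 20 µg/mL and -0.31 ± 0.082 with Poria Cocos (edgeR, adjusted p = 0.00328 and 0.00394). Without vehicle replicate 3 the other 5 had an adjusted p between 0.0507 and 0.174. Without vehicle replicate 2, those for Palmul-tang at 500 and 20 µg/mL and Samul-tang had 0.0785, 0.0744 and 0.0673. Replicates 1 and 2 of Palmul-tang at 500 µg/mL (0.155 and 0.176), replicate 2 at 100 (0.0709), any replicate at 20 (0.0597 to 0.0894) and the Samul-tang libraries at 100 and 20 µg/mL (0.0577 and 0.133) also decided their calls. SNHG9 (ENSG00000255198, chromosome 16), host of 1 box H/ACA snoRNA, had 2.96, 3.55 and 3.03 CPM with Atractylodis Rhizoma at 20, 100 and 500 µg/mL, against 4.19, 5.30 and 4.71 CPM in vehicle. That difference was -0.57 ± 0.15 on the log2 scale (edgeR, adjusted p = 0.00379), the farthest below 0 of any member in any comparison with vehicle. Its other call, -0.39 ± 0.15 with Sibjeondaebo-tang at 500 µg/mL (adjusted p = 0.044), was lost without vehicle replicate 2 or 3 or any 1 of its own libraries (0.0625 to 0.167).

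GAS5 (ENSG00000234741, chromosome 1, 173863900 to 173868882, minus strand), named for its rise in growth-arrested cells and known as a decoy of the glucocorticoid receptor, rose only slightly. It stood at 71.1, 67.6 and 68.8 CPM in vehicle, at 74.6, 69.9 and 75.3 CPM with Palmul-tang at 20 µg/mL, at 69.5, 67.5 and 71.8 at 100 and at 75.4, 71.6 and 81.8 at 500 µg/mL. With Sibjeondaebo-tang it stood at 72.3, 79.2 and 72.7 CPM at 20 µg/mL, at 75.3, 73.7 and 71.5 at 100 and at 80.1, 77.9 and 75.9 at 500 µg/mL. The Samul-tang libraries had 68.4, 85.4 and 87.9 CPM at 20, 100 and 500 µg/mL, so only the upper doses lay above vehicle. Poria Cocos had 75.2, 81.2 and 79.1 CPM and Atractylodis Rhizoma 68.1, 75.6 and 75.6 CPM at these doses. GAS5 was called higher in 4 of 9 comparisons: 0.14 ± 0.046 with Palmul-tang and 0.17 ± 0.045 with Sibjeondaebo-tang at 500 µg/mL, 0.21 ± 0.046 with Samul-tang and 0.18 ± 0.046 with Poria Cocos (edgeR, adjusted p = 0.0145, 0.00344, 0.00045 and 0.00221). Without replicate 3 of Palmul-tang at 500 µg/mL, the adjusted p there was 0.124.

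DANCR, ZFAS1 and EPB41L4A-AS1, each with a name of its own outside the SNHG series, moved little. DANCR (ENSG00000226950, chromosome 4, 52712404 to 52720351, plus strand), named as an antagonist of differentiation, had 37.8, 41.4 and 43.3 CPM with Palmul-tang and 40, 37.4 and 41.8 CPM with Sibjeondaebo-tang at 500 µg/mL, against 45.0, 44.6 and 44.9 CPM in vehicle. Both groups lay under vehicle, by -0.13 ± 0.051 and -0.18 ± 0.051 on the log2 scale (edgeR, adjusted p = 0.0368 and 0.0075). The call for Sibjeondaebo-tang was lost without its replicate 2 (0.0843), and that for Palmul-tang without replicate 1 (-0.073, adjusted p = 0.33), replicate 2 (0.0852) or any 1 of the vehicle libraries (0.0784 to 0.0877). ZFAS1 (ENSG00000177410, chromosome 20, 49278178 to 49295738, plus strand), host of 3 box C/D snoRNAs, ran from 42.4 to 50.9 CPM in treated libraries and had 49.9, 49.8 and 43.3 CPM in vehicle. Its log2 fold change lay between -0.11 and 0.01 and was called in none of the comparisons. Without vehicle replicate 3 it was called lower for Palmul-tang at 500 and 100 µg/mL and Sibjeondaebo-tang at 20 µg/mL, with adjusted p of 0.0165, 0.0335 and 0.0356. EPB41L4A-AS1 (ENSG00000224032, chromosome 5, 112160526 to 112164276, plus strand), an antisense host of 1 box H/ACA snoRNA, ran from 13.6 to 17.4 CPM in treated libraries and had 14.7, 15.5 and 13.8 CPM in vehicle, with no call.

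The other 16 tested members gave 11 calls against vehicle, in SNHG5, SNHG7, SNHG10, SNHG15, SNHG18, SNHG26, SNHG29 and SNHG31. Each of these calls was lost on leaving out at least 1 library, with an adjusted p then reaching between 0.075 and 0.28. SNHG32 and SNHG29, the members at the highest level per kb, ran from 125 to 148 and from 223 to 261 CPM in treated libraries, and from 133 to 136 and from 244 to 258 CPM in vehicle. Across the 9 comparisons the log2 fold change of SNHG32 lay between -0.06 and 0.06. SNHG11, SNHG19, SNHG20, SNHG21, SNHG28, SNHG30, SNHG32 and SNHG4 had no call in any of the 11 planned comparisons, as ZFAS1 and EPB41L4A-AS1.

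The comparison of 500 with 20 µg/mL within a formula asked which host RNAs depended on dose, and it does not use vehicle. In Sibjeondaebo-tang SNHG3 was higher and SNHG14 lower at the high dose, 2 of 29 members beside 8.36% of all genes (4.6% higher and 3.76% lower). SNHG3, with the values given above, did not overlap between the doses and rose by 0.24 ± 0.047 on the log2 scale (95% interval 0.15 to 0.33; edgeR, adjusted p = 0.000404). Without replicate 3 at 500 µg/mL its log2 fold change was again 0.24 (adjusted p = 0.000784). SNHG14 fell by 0.17 (SE 0.047; 95% interval -0.27 to -0.078; adjusted p = 0.0135), again without overlap. That call was lost without replicate 1 or 3 at 20 µg/mL (0.086 and 0.0637) or replicate 3 at 500 µg/mL (0.0548), and with only these 6 libraries fitted (0.079).

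In Palmul-tang, edgeR called 0 of 29 members between 500 and 20 µg/mL, beside 7.12% of all genes (3.55% higher and 3.57% lower). DESeq2 also called 0 members, beside 716 genes. In edgeR, 9 of 29 members and 2672 of 13850 genes had an unadjusted p under 0.05. SNHG3 differed by 0.07 ± 0.047 (95% interval -0.023 to 0.17; edgeR, adjusted p = 0.428) and SNHG14 by -0.11 ± 0.047 (-0.21 to -0.016; adjusted p = 0.171). Libraries of both doses did not overlap for 5 members, all lower at 500 µg/mL, which is 17.2% beside 27.1% of all genes (12.7% higher and 14.4% lower). In Sibjeondaebo-tang they did not overlap for 8 members, 2 higher and 6 lower, or 27.6% beside 20.8% (11.2% higher and 9.57% lower).

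Whether the dose difference itself differed between the formulas was tested after the data had been seen. For SNHG3 the difference, Sibjeondaebo-tang minus Palmul-tang, was 0.17 ± 0.066 (95% interval 0.032 to 0.30) with an edgeR adjusted p of 0.9999. The intervals of SNHG5 at 0.29 ± 0.098, ZFAS1 at 0.20 ± 0.077 and SNHG32 at 0.15 ± 0.060 also lay above 0, with the same adjusted p. Neither edgeR nor DESeq2 called any member, or any of the 13850 genes (0%), and 4 members and 614 genes had an unadjusted p under 0.05 in edgeR. SNHG3 is thus called in one formula and not in the other without a shown difference between them.

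**Figure D4:**
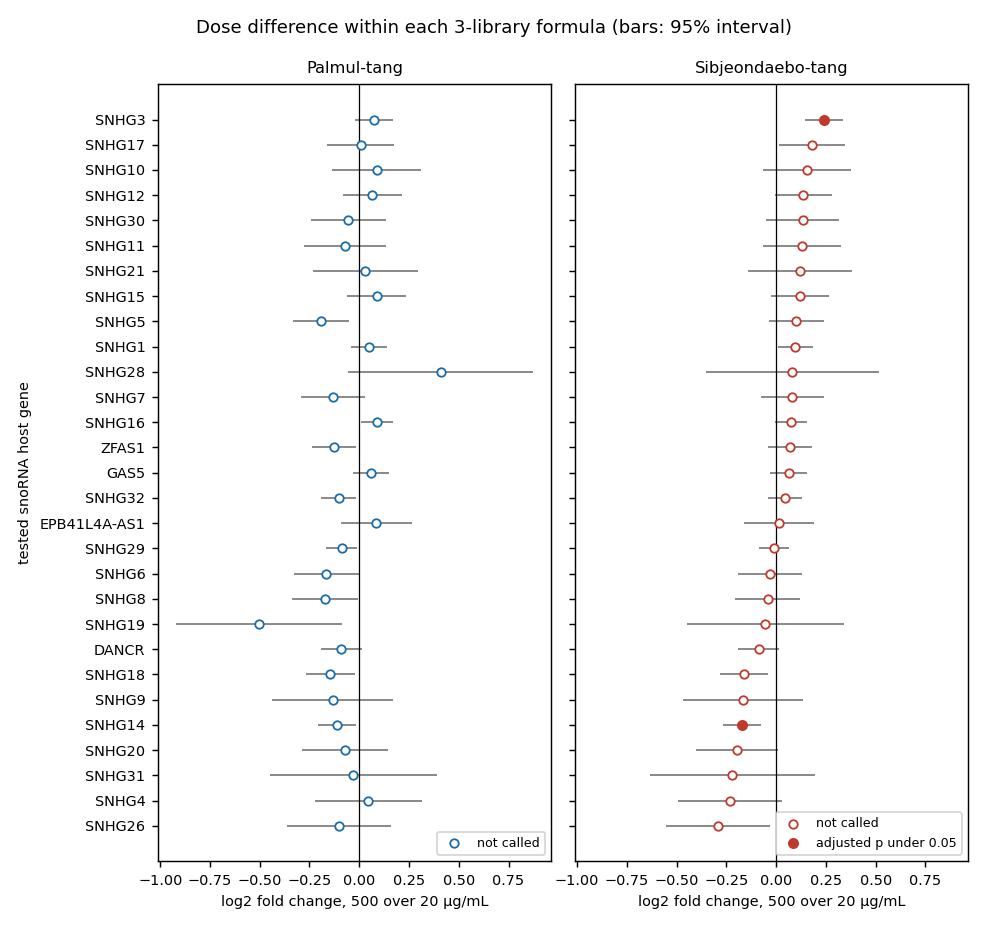
Log2 fold change of 500 over 20 µg/mL for the 29 tested host genes in Palmul-tang (left) and Sibjeondaebo-tang (right), with 95% intervals as bars and filled points where the adjusted p is under 0.05. Filled points occur for SNHG3 at 0.24 and SNHG14 at -0.17 with Sibjeondaebo-tang, and none with Palmul-tang.

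Differences between extracts were also compared without vehicle, again chosen after the data had been seen: the mean of 3 doses of each single-library extract against the mean of both larger formulas. Samul-tang, the larger formulas, and Poria Cocos with Atractylodis Rhizoma each carry a sample code set of their own, so extract and handling cannot be told apart here either. Samul-tang differed in 2 of 29 members by edgeR, beside 3.65% of all genes (1.07% higher and 2.58% lower). Poria Cocos differed in 1, beside 5.59% (2.11% higher and 3.48% lower). Atractylodis Rhizoma differed in 0, beside 8.09% (3.77% higher and 4.32% lower), and DESeq2 called 0 members beside 832 genes. For this extract 8 of 29 members and 2841 of 13850 genes had an unadjusted p under 0.05 in edgeR. SNHG26, host of 1 box C/D snoRNA, had 2.93, 3 and 2.6 CPM with Samul-tang at 20, 100 and 500 µg/mL, against 3.09 to 4.94 CPM in the 18 libraries of the larger formulas. The difference was -0.41 ± 0.11 on the log2 scale (edgeR, adjusted p = 0.0231). The call was lost without any 1 of the Samul-tang libraries (0.174, 0.0623 and 0.0763 without 500, 100 and 20 µg/mL). SNHG7, host of 3 box H/ACA snoRNAs, had 16.8, 18.9 and 19.9 CPM with Samul-tang, against 13.4 to 17.7 CPM in the formulas, and was higher by 0.22 ± 0.059 (adjusted p = 0.0276), and this was lost without its 500 or 100 µg/mL library (0.275 and 0.143). SNHG18, with 1 box C/D snoRNA, had 26.4, 27.9 and 28.9 CPM with Poria Cocos, against 22.4 to 27.4 CPM in the formulas, and was higher by 0.16 ± 0.045 (adjusted p = 0.0233), and this was lost without its 500 or 100 µg/mL library (0.289 and 0.105). By DESeq2 none of these 3 was called. SNHG12 differed from the formulas by -0.02, -0.11 and -0.16 with Samul-tang, Poria Cocos and Atractylodis Rhizoma, and SNHG1 by -0.0046, -0.0065 and -0.05, none of them called. For Atractylodis Rhizoma SNHG12 had an adjusted p of 0.0698, and it was called with a replicate block (-0.194, adjusted p = 0.046) and with no filter on low counts (adjusted p = 0.0371). It was also called without replicate 2 of Palmul-tang at 100 µg/mL, replicate 2 of Sibjeondaebo-tang at 500 µg/mL or replicate 3 at 100 µg/mL (adjusted p = 0.0396, 0.0421 and 0.0481). Other members also gained a call under some alternatives. GAS5 with Samul-tang (edgeR, adjusted p = 0.0673) was called higher with DESeq2 size factors (0.0458) and with no filter on low counts (0.0478). SNHG3 with Atractylodis Rhizoma (0.0784) was called lower with a replicate block (-0.14, adjusted p = 0.0144).

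Some host genes share exon bases with neighbours, and the deposited counts are estimates that divide shared reads. The counting strand is not stated in the sources used here, so reads of genes on opposite strands may not be separated. SNHG3 shares 242 bases with RCC1, a chromatin-bound guanine exchange factor, on the same strand. RCC1 fell by 0.18 with Palmul-tang and by 0.11 with Sibjeondaebo-tang at 500 µg/mL against vehicle (edgeR, adjusted p = 0.000202 and 0.0267), and differed by 0.09 (adjusted p = 0.173) between 500 and 20 µg/mL of Sibjeondaebo-tang. SNHG14 shares 141 bases with SNRPN, a paternally expressed splicing protein gene, on the same strand. SNRPN was lower than vehicle, by -0.11 ± 0.043 with Palmul-tang and by -0.18 ± 0.043 with Sibjeondaebo-tang at 500 µg/mL (adjusted p = 0.0377 and 0.0012), where SNHG14 was higher. Of UBE3A, the ubiquitin ligase gene on the opposite strand to SNHG14 with 198 shared bases, and TRNAU1AP, opposite SNHG12 with 8, neither was called at 500 µg/mL of either formula. All values of SNHG16, SNHG29 and SNHG7 and none of SNHG12, SNHG8 and GAS5 were fractional estimates.

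Other genes of the same pathways were read from lists, beside the shares of all tested genes called at 500 µg/mL: 17.2% higher and 19.4% lower with Palmul-tang, and 17.1% higher and 16.3% lower with Sibjeondaebo-tang. Of 80 ribosomal protein genes, 2 were higher and 44 lower with Palmul-tang at 500 µg/mL, and 3 higher and 38 lower with Sibjeondaebo-tang, with a median log2 fold change of -0.15 and -0.13 beside -0.00051 and 0.0094 over all genes. RPL13A, a ribosomal protein gene that hosts box C/D snoRNAs, fell by 0.46 and 0.38, and RPL14 fell by 0.40 and 0.35 (Palmul-tang and Sibjeondaebo-tang at 500 µg/mL). Of 30 protein-coding snoRNA hosts outside the ribosomal proteins, 6 were higher and 5 lower with each formula at 500 µg/mL. EIF4A2, a translation initiation helicase, rose by 0.41 with Palmul-tang and 0.46 with Sibjeondaebo-tang, and EEF2, the translocation factor, fell by 0.21 and 0.17. These 11 of 30 lie near the 36.6% and 33.4% of all genes called in either direction.

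Of 17 genes for snoRNP core and assembly proteins, 2 were higher and 4 lower with each formula at 500 µg/mL, near the 36.6% and 33.4% of all genes called with Palmul-tang and Sibjeondaebo-tang. They were led by FBL, the methyltransferase of box C/D particles, which fell by 0.27 with Palmul-tang and 0.30 with Sibjeondaebo-tang. NOLC1, a nucleolar chaperone of snoRNPs, was the only gene of that list called between doses, beside 3.55% and 4.6% of all genes called higher, and was higher at 500 than at 20 µg/mL by 0.12 with Palmul-tang and 0.11 with Sibjeondaebo-tang (edgeR, adjusted p = 0.0371 and 0.0495). Of 16 nonsense-mediated decay factors, 1 was higher and 5 lower with each formula at 500 µg/mL, again near the share of all genes. SMG1, the kinase of UPF1, rose by 0.24 and 0.20 with Palmul-tang and Sibjeondaebo-tang, and RNPS1, a splicing-deposited activator of decay, fell by 0.23 and 0.19. Of 16 other mRNAs with a terminal oligopyrimidine tract, 1 was higher and 10 lower with Palmul-tang, and 1 higher and 7 lower with Sibjeondaebo-tang, beside the 19.4% and 16.3% of all genes called lower.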

How the data were processed

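RNA of SW1783 cells was sequenced in 30 libraries of 16 groups with the MGIEasy RNA Directional kit, per the labels' protocols. Per the submitters' processing notes, FastQC 0.11.9, Trim Galore 0.6.5, STAR 2.7.3a and RSEM 1.3.3 were used with GRCh38. What the authors deposited is 1 expected count for each gene and library, of which 24% of those above 0 were fractional. The annotation release and counting strand are not given in the sources used here. The table has 279 columns, and 249 of them, belonging to no sample listed, stayed unused.

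Rounding to whole numbers came first. CPM were scaled by TMM, and genes with a mean of at least 1 CPM (13850 of 60675) were tested in edgeR 4.0.16 on R 4.3.3 (estimateDisp, robust glmQLFit, 1 mean per group, all 30 libraries), which assumes that a lone library varies as the replicated groups do. Calls used Benjamini-Hochberg adjustment over all tested genes at 0.05, and 95% intervals used 34.2 degrees of freedom, the median. Symbols matched 56558 IDs, and positions are from GENCODE 29. The fit was tested on simulated data. Alternatives were DESeq2 size factors, DESeq2 1.42.0, 2 filters, only the compared groups, a replicate block and each library left out. Of 15 comparisons, 4 were added after the data had been seen. Members and lists were chosen with earlier results of these data known. Members given in full were GAS5, ZFAS1, DANCR, EPB41L4A-AS1, SNHG1 and the 8 others with the smallest p, and list genes up to 3 by smallest p.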

Additional observations from a re-analysis of the deposited data

How the results depend on the processing

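Of 89 calls of members in the 11 planned comparisons, 58 held under every alternative and 31 were lost under at least 1. None of the called values of members changed sign, while some values that were not called did, and DESeq2 size factors moved no log2 fold change of these members by more than 0.013. The DESeq2 Wald test called 7 members for Sibjeondaebo-tang at 500 µg/mL against vehicle in place of 11, and 0 in place of 2 and 1 for Samul-tang and Poria Cocos against the larger formulas. Over all genes it called 3603 in place of 4631, and 327 and 553 in place of 506 and 774. Fitting only the compared groups gave 1 member in place of 0 for Palmul-tang and 1 in place of 2 for Sibjeondaebo-tang between 500 and 20 µg/mL, with 1394 in place of 986 and 632 in place of 1158 genes overall. With no filter on low counts, Atractylodis Rhizoma differed from the larger formulas in 1 member in place of 0, beside 1113 genes in place of 1121.

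Leaving out 1 library gave between 8 and 11, 8 and 10, and 7 and 8 members for Palmul-tang at 500, 100 and 20 µg/mL against vehicle, and between 7 and 10, 6 and 8, and 7 and 9 for Sibjeondaebo-tang. Over all genes the calls were 4134 to 4373, 3381 to 3688 and 3440 to 3847 for Palmul-tang, in place of 5066, 4274 and 4400. For Sibjeondaebo-tang they were 3624 to 5325, 3530 to 4099 and 3479 to 4016, in place of 4631, 4514 and 4408. Leaving out 1 library gave between 9 and 10 members for Samul-tang, 6 and 11 for Poria Cocos and 8 and 9 for Atractylodis Rhizoma. Of all genes, 4123 to 4743, 4112 to 4417 and 4020 to 4544 were then called, in place of 5097, 5042 and 5032. Between doses leaving out 1 library gave 0 to 1 member for Palmul-tang and 1 to 2 for Sibjeondaebo-tang. This stood beside 672 to 768 and 801 to 1234 of all genes, in place of 986 and 1158. Against the larger formulas it gave 0 to 3 members for Samul-tang, 0 to 2 for Poria Cocos and 0 to 2 for Atractylodis Rhizoma. All genes called there were 320 to 686, 264 to 977 and 405 to 1434, in place of 506, 774 and 1121. The difference of the dose differences gave 0 members throughout, beside 0 to 1 of all genes.

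The main fit did not pair samples by replicate number. Deviations of same-numbered libraries correlated above 0.1 in 20 of 45 pairs among the formulas (median 0.0914, highest 0.355). With vehicle they did so in 4 of 18 pairs (median 0.0209, highest 0.215). Pairs of libraries with different numbers were not compared, so whether the numbers pair samples was not tested. With the number as a block, members called were 12, 9 and 9 for Palmul-tang at 500, 100 and 20 µg/mL, 10, 8 and 8 for Sibjeondaebo-tang, 0 and 2 between doses, and 10, 10 and 9 for the single-library extracts against vehicle. In the same order, all genes called were 5265, 4475 and 4684 for Palmul-tang and 4865, 4750 and 4663 for Sibjeondaebo-tang. They were 1090 and 1300 between doses, in place of 986 and 1158, and 5196, 4820 and 4833 for the single-library extracts. Against the larger formulas the block gave 0 members for Samul-tang and 2 for Atractylodis Rhizoma, beside 356 and 1042 of all genes. All Samul-tang libraries carry replicate number 3, and all Poria Cocos and Atractylodis Rhizoma libraries carry number 1. Number and extract are thus tied for them, and the block rests on the groups with 3 libraries. Whether it holds for the single libraries was not tested, nor was the cause of these changes in calls.

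Counts behind the lowest tested member, SNHG31, averaged 29.4 per library. Values rest on estimated counts, the strand used is not stated, and vehicle differs from all treated libraries in its sample codes.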
